A study of Mus musculus with 31 samples.

Results

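The splicing factors described here are 55 genes for SR proteins, hnRNPs, subunits of the SF3 complexes, snRNP proteins and PRPF factors, measured with 61 probes. They were chosen by symbol alone, as the probes whose single annotated gene symbol begins with Srsf and a digit, Hnrnp, Sf3a or Sf3b and a digit, Snrp, or Prpf and a digit. They form 9 SR genes, 16 hnRNP genes, 7 SF3 genes, 13 Snrp genes (1 of them the pseudogene Snrp1c-ps2) and 10 PRPF genes, out of 15096 named genes on the array. Whole-brain RNA of male BXD/TyJ mice aged 8 weeks was taken from 31 strains, with RNA of 3 animals mixed for each strain and 20 ug labelled with Alexa Fluor 647. The reference was whole-brain RNA of male C57BL/6J mice aged 8 weeks, also pooled, of which 20 ug was labelled with Alexa Fluor 555 together with 2 ug of a spike-in mix. BXD strains are recombinant inbred lines that descend from C57BL/6J and DBA/2J mice, so each line carries its own fixed mosaic of the parental genomes. Each strain was hybridised once, with no dye swap, so strain and dye cannot be told apart in a mean over all arrays.

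The spliceosome removes introns from RNA transcripts and is built from small nuclear ribonucleoproteins (snRNPs), each an RNA with a ring of Sm proteins and proteins of its own. SF3A and SF3B belong to the U2 snRNP, which recognises the branch point of the intron, and PRPF factors carry the assembled complex through its rearrangements. SR proteins bind exons and mostly promote their inclusion, hnRNPs often repress it, and the balance of the families shapes the many tissue-specific isoforms of the brain.

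All values are log2 ratios of a strain over C57BL/6J, so a positive value means more RNA in the strain. The log base and the direction were not stated and were taken from the values and from the order of the channels. If the direction ran the other way every sign below would turn, while the correlations would stay. A ratio carries no level: genes cannot be ranked by abundance, the tissue cannot be checked against its markers, and fewer cells of a type cannot be told apart from less RNA per cell.

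On the first principal component of all features other than the splicing factors (28.7% of the variance), 7 arrays stood apart: BXD38, BXD36, BXD28, BXD23, BXD20, BXD8 and BXD6. On the second (11.9%), 8 others did so: BXD42, BXD40, BXD39, BXD34, BXD33, BXD27, BXD22 and BXD15. The labels give no batch, and these array groups are a description of the data and not groups of the study. They are called here the component 1 arrays and the component 2 arrays, with 16 remaining arrays. The share of a gene's variance between array groups had a median of 29.9% over the members and 33.9% over all named genes. More variance lay between than within array groups for 12 of the 55 members and for 28.2% of all named genes. Correlations over strains were taken on deviations from the mean of each array group, and some are given within the groups too. These deviations leave in the third component, on which BXD32 (0.527) and BXD5 (0.389), both among the remaining arrays, scored highest. Counted in runs of 8 along the deposited list, spots at the eighth place read low (mean −0.54 over named probes, against −0.01 to 0.08 at the other 7 places), and the probes of Hnrnpa0 and Prpf40b lie there.

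Against C57BL/6J, 25 of the 55 genes were higher in the BXD strains and 17 lower (limma over all features, Benjamini-Hochberg adjusted p under 0.05), and 13 passed in neither direction. That is 76.4% of the genes, where 76.1% of all 21262 features passed (42.1% higher, 33.9% lower), so the share of splicing factors is near the background. Their median mean log2 ratio was 0.05, beside 0.03 over all named genes. With the array groups as a random block (estimated correlation 0.408), 6 genes were higher and 10 lower, which is 29.1% beside 39.7% of all features (19.6% higher, 20.1% lower). All 16 were among the 42 called without the block. A change larger than 1.2-fold was called for 3 genes that were higher and 7 that were lower, 18.2% beside 27.9% of all features (12.4% higher, 15.6% lower). The p-values measure the spread between the 31 arrays and leave out that of the reference, which is 1 control sample. The plot of all members by family shows that means lay between −0.93 and 0.48 and that most genes spread across 0.

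**Figure D1:**
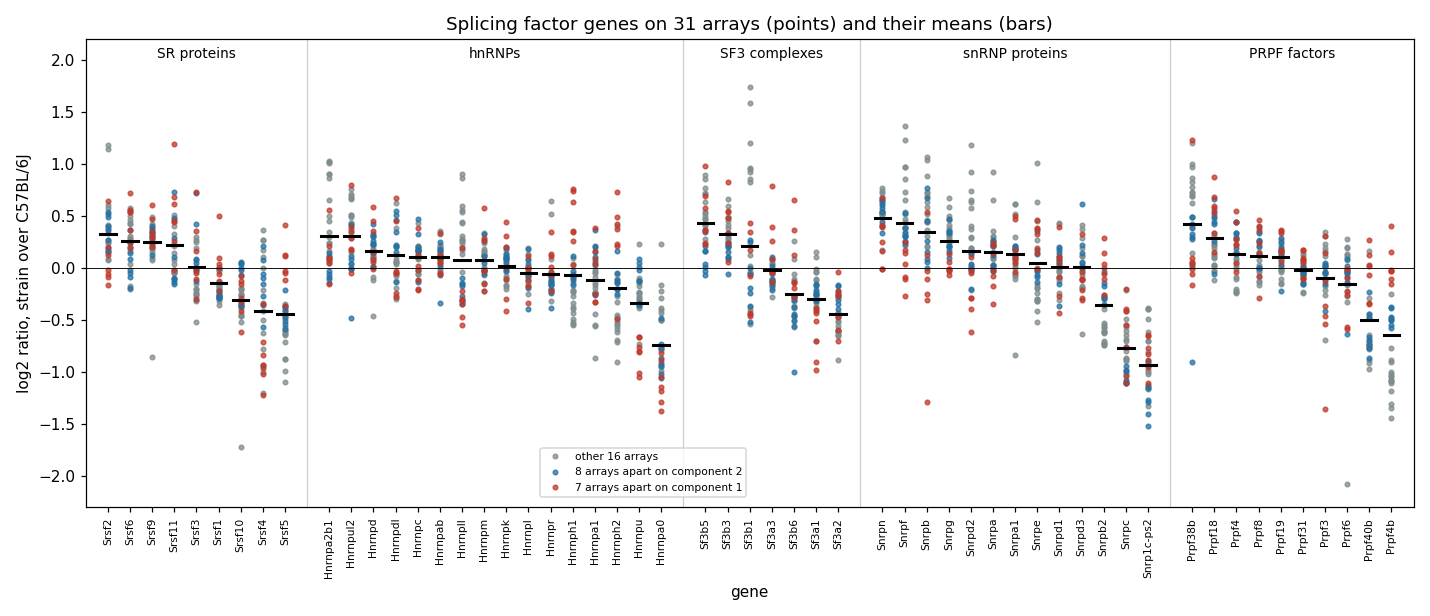
Log2 ratio of each strain over C57BL/6J (vertical axis) for the 55 splicing factor genes (horizontal axis, ordered by mean within a family); points are the 31 arrays, coloured by array group, and bars their means. Snrpc, Snrp1c-ps2 and Sf3a2 lie below 0 on all 31 arrays, and Prpf4b and Snrpb2 differ mostly between array groups (81.3% and 76.5% of their variance).

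The SR family moved in both directions, with 4 of 9 genes higher in the strains and 4 lower. Srsf5 ran between −1.10 in BXD12 and 0.41 in BXD28, with a median of −0.47. Its mean was −0.44 ± 0.06 (SE, n = 31; adjusted p = 2.87e-08), and it was the only SR gene that also passed with the block (adjusted p = 0.0102). The lowered values were on the component 2 arrays (mean −0.44) and the remaining arrays (−0.65), while the component 1 arrays averaged 0.01. Srsf4, one of the longest SR proteins, ran from −1.22 in BXD36 over a median of −0.36 to 0.36 in BXD18 (mean −0.42 ± 0.08, adjusted p = 2.74e-05). Here the component 1 arrays were the low ones, with a mean of −0.86, against −0.16 and −0.36. Srsf10, a repressor of splicing when dephosphorylated in heat shock, had a mean of −0.31 ± 0.06 (adjusted p = 9.3e-06), and BXD5 at −1.72 lay far below its other strains.

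Srsf2 (SC35), a classic marker of nuclear speckles, was higher, with values between −0.17 in BXD20 and 1.18 in BXD18 and a median of 0.27 (mean 0.32 ± 0.05, adjusted p = 2.78e-06). Srsf6 averaged 0.26 ± 0.04 and was positive on 25 of 31 arrays. Srsf9 averaged 0.25 ± 0.04 and was positive on 30, the exception being BXD16 at −0.86. Srsf11, known for its part in including neuronal microexons, averaged 0.22 ± 0.06 and reached 1.19 in BXD36. Srsf1, the founding SR protein also known as a proto-oncogene, averaged −0.15 ± 0.03, and Srsf3, the smallest of the family, 0.01 ± 0.05 (adjusted p = 0.885). With the block, Srsf1, Srsf2, Srsf4, Srsf6, Srsf9, Srsf10 and Srsf11 had adjusted p-values from 0.0581 to 0.172.

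Among hnRNPs, 7 of 16 genes were higher and 4 lower, and 12 had a mean within 0.2 of 0. The lowest mean was that of Hnrnpa0, which binds AU-rich messages in stress, with values between −1.38 in BXD36 and 0.23 in BXD5 and a median of −0.79. Its mean was −0.74 ± 0.06 (adjusted p = 2.61e-12), and with the typical value of its place on the array subtracted it was −0.32 (adjusted p = 0.00017, in a fit that called 73.6% of all features). In that fit Hnrnpu was lower, at −0.44 (adjusted p = 9.81e-09). Hnrnpu, a nuclear scaffold protein that organises chromatin, ran between −1.05 in BXD8 and 0.23 in BXD19 with a median of −0.29 (mean −0.34 ± 0.06, adjusted p = 1.91e-06, with the block 0.00435). Values ran from −1.05 to −0.67 on the component 1 arrays, −0.36 to 0.08 on the component 2 arrays and −0.73 to 0.23 on the remaining arrays. Of its variance 70.6% lay between array groups, and 28.2% of all named genes had more variance between than within them.

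Hnrnph2 averaged −0.19 ± 0.07 (adjusted p = 0.0152) and its paralog Hnrnph1 −0.07 ± 0.06 (adjusted p = 0.321). These proteins bind runs of G in introns and exons. In Hnrnph1 the component 1 arrays averaged 0.44 and the remaining arrays −0.29, and 71.0% of its variance over strains lay between array groups. Hnrnph2 also changed sign, with 0.28 on the component 1 arrays, −0.12 on the component 2 arrays and −0.43 on the remaining arrays (51.0% of its variance). It lost its call with the block (adjusted p = 0.615) and with array groups weighted equally (0.128). The highest called hnRNPs were Hnrnpa2b1, which carries RNA into dendrites and represses exons, and Hnrnpul2, a relative of Hnrnpu. Hnrnpa2b1 ran between −0.16 in BXD8 and 1.03 in BXD19 with a median of 0.16 (mean 0.31 ± 0.07, adjusted p = 8.97e-05), and its component 2 arrays averaged −0.01. Hnrnpul2 ran between −0.48 in BXD33 and 0.80 in BXD28 with a median of 0.35 (mean 0.31 ± 0.05, adjusted p = 1.65e-06). Hnrnpd, which binds AU-rich messages and speeds their decay, averaged 0.16 ± 0.04, and its paralog Hnrnpdl 0.12 ± 0.05. Hnrnpd was not called with the place median subtracted (0.061, adjusted p = 0.142) or on the remaining arrays alone (0.078, 0.139). Hnrnpa1, a well-studied exon silencer, averaged −0.12 ± 0.05. Hnrnpab, Hnrnpc, which covers uridine tracts, and Hnrnpm averaged 0.07 to 0.10 and were called higher. Hnrnpdl, Hnrnpc and Hnrnpm likewise lost their calls in several of the alternative fits. Hnrnpk, Hnrnpl, which binds CA repeats, its paralog Hnrnpll, Hnrnpr and Hnrnph1 were not called, with means from −0.07 to 0.07. Hnrnpl was called lower with median centring (−0.066, adjusted p = 0.0309) and with the place median subtracted (−0.15, 1.3e-05). With the place median subtracted Hnrnpr was called lower too (−0.14, 0.00234). Hnrnph1 was called lower without the component 1 arrays (−0.22, 2.94e-05) and on the remaining arrays alone (−0.29, 2.8e-05). The mean of Hnrnpll joins array groups that lay far apart, −0.29 on the component 1 arrays, −0.23 on the component 2 arrays and 0.38 on the remaining arrays, with 69.6% of its variance between them. It was called higher on the remaining arrays alone (adjusted p = 1.78e-05) and without either of the other array groups (0.18 in both fits, adjusted p = 0.0239 and 0.0471). With the block, Hnrnpa0 and Hnrnpu were the only hnRNPs called.

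Of the 7 SF3 genes, 2 were higher, 3 lower and 2 not called. Sf3b5 and Sf3b3, both subunits of the SF3B complex, were the higher pair. Sf3b5 ran between −0.07 in BXD42 and 0.98 in BXD8 with a median of 0.41 (mean 0.43 ± 0.05, adjusted p = 1.87e-09). Sf3b3 ran between −0.06 in BXD27 and 0.82 in BXD28 with a median of 0.29 (mean 0.32 ± 0.04, adjusted p = 1.43e-09). Sf3a2, a subunit of SF3A, was negative on all 31 arrays, from −0.89 in BXD9 over a median of −0.47 to −0.04 in BXD6 (mean −0.44 ± 0.04, adjusted p = 1.25e-12). Sf3a1 averaged −0.30 ± 0.05 (adjusted p = 4.31e-07) with its lowest value, −0.98, in BXD28. Sf3b6, the small subunit that touches the branch adenosine, averaged −0.25 ± 0.05 (adjusted p = 0.000129). With the block, Sf3b3, Sf3b5, Sf3a1 and Sf3a2 stayed under an adjusted p of 0.05 and Sf3b6 had 0.146. Subunits of SF3A thus showed Sf3a1 and Sf3a2 lower and Sf3a3 near 0 (mean −0.02 ± 0.04, adjusted p = 0.656). Sf3a3 was called lower without the component 1 arrays (−0.078, adjusted p = 0.00524) and on the remaining arrays alone (−0.082, 0.022).

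Sf3b1, the largest SF3B subunit and the one most often mutated in blood cancers, had the widest spread of all members, with an SD within array groups of 0.58 beside a median of 0.22 over the members and 0.21 over all named genes. Its values ran between −0.54 in BXD24 and 1.74 in BXD31 with a median of 0.00. On the 16 remaining arrays they fell on either side of a gap of 0.70: BXD9, BXD32, BXD18, BXD21, BXD29, BXD12, BXD11 and BXD31 lay between 0.82 and 1.74, and the other 8 strains between −0.54 and 0.12. None of the 15 arrays apart on component 1 or 2 exceeded 0.43. Gaps in other genes were not looked for. The mean over 31 arrays, 0.21 ± 0.11, was not called (adjusted p = 0.0841), while without the component 1 arrays it was 0.28 (adjusted p = 0.0465), without the component 2 arrays 0.31 (0.0403), and on the remaining 16 arrays alone 0.48 (0.0147). These fits called 79.4%, 70.7% and 76.1% of all features, in the same order. Over those 16 arrays, the correlation of Sf3b1 with its 20 nearest measured neighbours on the chromosome ran from −0.516 to 0.583. This look at neighbours was chosen after the values were seen. Genotypes of the strains were not analysed here.

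**Figure D2:**
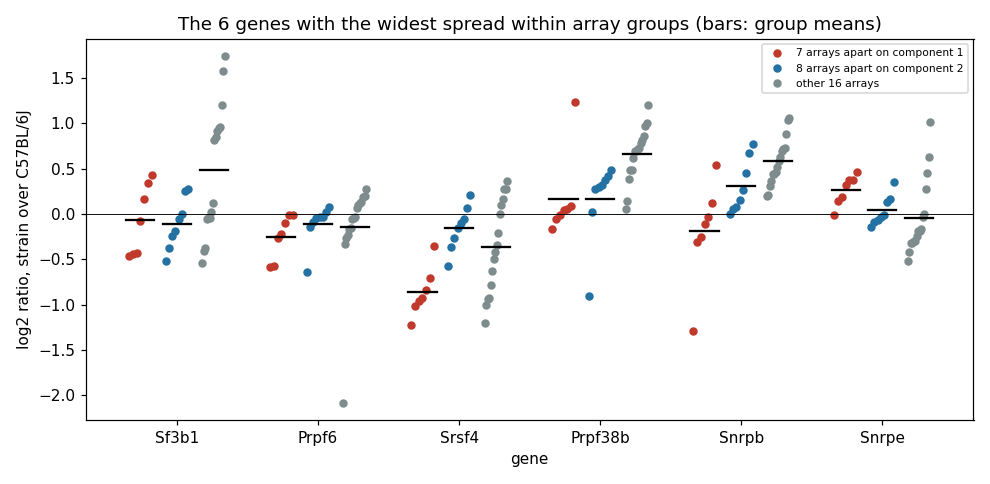
Log2 ratio of each strain over C57BL/6J (vertical axis) for the 6 members with the widest spread within array groups (horizontal axis); points are arrays sorted by value within each array group and bars are group means. On the 16 remaining arrays Sf3b1 leaves a gap of 0.70 between 8 strains at 0.82 to 1.74 and 8 strains at or below 0.12, while Prpf6 owes its spread to a single array at −2.08.

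Of the 13 Snrp genes, 7 were higher, 3 lower and 3 not called. Snrpc, the U1 protein that steadies pairing of the U1 snRNP with the start of the intron, was negative on all 31 arrays, from −1.11 in BXD27 over a median of −0.80 to −0.20 in BXD6. Its mean was −0.77 ± 0.05 (adjusted p = 1.46e-15). The pseudogene Snrp1c-ps2, named for the same protein, also stayed below 0 throughout, from −1.52 in BXD27 over a median of −0.94 to −0.39 in BXD12 (mean −0.93 ± 0.05, adjusted p = 1.4e-16). Both were lowest on the component 2 arrays, with means of −1.01 for Snrpc and −1.20 for the pseudogene. Whether the probes tell the gene and its pseudogene apart was not tested. Together with Sf3a2 they were the members called with the same sign on all 31 arrays, all 3 of them lower, a property of 10.2% of all features (3.38% higher, 6.79% lower).

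Snrpn, the Sm protein of neurons and a paternally expressed gene of the Prader-Willi region, had the highest mean of the 55 genes. Its values ran between −0.01 in BXD36 and 0.77 in BXD21 with a median of 0.53 (mean 0.48 ± 0.04, adjusted p = 2.12e-13), and 29 of 31 strains were above 0. Snrpb, its near relative in most cell types, averaged 0.34 ± 0.08 (adjusted p = 0.000342), with BXD36 at −1.29 and BXD5 at 1.06. Snrpf, also of the Sm ring, ran between −0.27 in BXD8 and 1.36 in BXD1 with a median of 0.38 (mean 0.43 ± 0.06, adjusted p = 3.44e-07). Snrpg averaged 0.26 ± 0.04 (adjusted p = 4.65e-08). The other Sm genes stayed nearer 0: Snrpd2 averaged 0.16 ± 0.07 and was called, and Snrpd1, Snrpd3 and Snrpe averaged 0.01 to 0.05 and were not. The 8 genes of the Sm ring are a selection within the family that was not set out beforehand. Of them, 5 were thus called higher (62.5%, beside 42.1% of all features) and 0 lower. On the component 1 arrays these 5 were not all raised, with means of −0.19 for Snrpb, −0.22 for Snrpd2, 0.02 for Snrpf, 0.01 for Snrpg and 0.27 for Snrpn. In the same order, the remaining arrays averaged 0.58, 0.40, 0.65, 0.38 and 0.54. Snrpb (adjusted p = 0.282) and Snrpd2 (0.721) lost their call with the block, which left 3 higher (37.5%, beside 19.6%), and Snrpd2 also lost it with median centring (0.0505). Among proteins of single snRNPs, Snrpa of U1 averaged 0.15 ± 0.04, Snrpa1 of U2 0.13 ± 0.05 and Snrpb2 of U2 −0.36 ± 0.05 (adjusted p = 1.11e-07). Snrpb2 averaged 0.01 on the component 1 arrays, −0.24 on the component 2 arrays and −0.58 on the remaining arrays, and 76.5% of its variance lay between these groups. With the block, Snrpn, Snrpf and Snrpg were called higher and Snrpc, Snrp1c-ps2 and Snrpb2 lower.

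Of the 10 PRPF genes, 5 were higher and 3 lower. Prpf4b, a kinase that phosphorylates other PRPF proteins, ran between −1.44 in BXD12 and 0.40 in BXD6 with a median of −0.58 (mean −0.65 ± 0.08, adjusted p = 2.36e-08). It averaged 0.03 on the component 1 arrays, −0.48 on the component 2 arrays and −1.04 on the remaining arrays. The component 1 arrays, at −0.16 to 0.40, overlapped with neither of the others. Of its variance 81.3% lay between array groups, the largest share among the members, beside a median of 33.9% over all named genes. Prpf40b, related to a yeast U1 protein, averaged −0.50 ± 0.06 (adjusted p = 7.32e-09), and −0.09 with the typical value of its place subtracted (adjusted p = 0.113). Prpf6, a bridge within the tri-snRNP, was called at −0.16 ± 0.07 (adjusted p = 0.0477), with BXD13 at −2.08 and its next lowest strain at −0.64. Without BXD13 its mean was −0.095 (adjusted p = 0.0404, in a fit that called 75.3% of all features). Its call was lost with the block (0.541), without the component 1 arrays (0.174), without the component 2 arrays (0.097) and with array groups weighted equally (0.0512). Prpf38b ran between −0.91 in BXD15 and 1.23 in BXD36 with a median of 0.42 (mean 0.42 ± 0.08, adjusted p = 1.18e-05). Prpf18, which acts at the second step of splicing, averaged 0.29 ± 0.05 (adjusted p = 1.1e-06) and passed with the block (0.00544), as did Prpf4b (0.00261) and Prpf40b (0.00853). The fit with the block did not subtract the place on the array. Prpf40b averaged −0.05 on the component 1 arrays, −0.61 on the component 2 arrays and −0.65 on the remaining arrays. Prpf4, of the U4/U6 snRNP, Prpf8, the protein at the catalytic centre, and Prpf19, a ubiquitin ligase, averaged 0.10 to 0.13 and were called higher, but none of the 3 was called with the block or on the remaining arrays alone. Prpf3 (−0.10 ± 0.06) and Prpf31 (−0.02 ± 0.02), both of the U4/U6 snRNP and both known as retinitis pigmentosa genes, were not called. With array groups weighted equally Prpf3 was called lower (−0.14, adjusted p = 0.0281).

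Over strains, the 2 most closely correlated pairs of the 1485 pairs of members were Hnrnph2 with Snrpe and Srsf1 with Srsf3, and the stretches before their transcription starts are shown so that these pairs can be compared letter by letter. Each is the 250 bases before the start in RefSeq's GRCm38.p6 annotation, read 5′ to 3′ on the strand of the gene. Capitals mark matches, on either strand, to the CCAAT box (CCAAT), the GC box (GGGCGG), the CRE core (TGACG) and the TATA box (TATAAA). The regions are chr11:88047123-88047372 on the plus strand for Srsf1, chr17:29032410-29032659 on the plus strand for Srsf3, chrX:134600929-134601178 on the plus strand for Hnrnph2 and chr1:133610281-133610530 on the minus strand for Snrpe.
Srsf1: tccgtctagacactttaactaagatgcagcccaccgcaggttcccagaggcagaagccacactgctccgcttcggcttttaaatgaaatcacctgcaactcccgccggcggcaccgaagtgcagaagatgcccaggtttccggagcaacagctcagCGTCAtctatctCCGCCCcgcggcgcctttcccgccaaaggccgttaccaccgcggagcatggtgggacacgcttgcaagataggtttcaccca
Srsf3: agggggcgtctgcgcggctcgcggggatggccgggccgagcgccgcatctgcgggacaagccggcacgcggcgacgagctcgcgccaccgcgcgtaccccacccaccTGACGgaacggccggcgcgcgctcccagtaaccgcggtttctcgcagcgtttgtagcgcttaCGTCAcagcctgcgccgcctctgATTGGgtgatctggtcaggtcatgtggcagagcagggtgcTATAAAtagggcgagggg
Hnrnph2: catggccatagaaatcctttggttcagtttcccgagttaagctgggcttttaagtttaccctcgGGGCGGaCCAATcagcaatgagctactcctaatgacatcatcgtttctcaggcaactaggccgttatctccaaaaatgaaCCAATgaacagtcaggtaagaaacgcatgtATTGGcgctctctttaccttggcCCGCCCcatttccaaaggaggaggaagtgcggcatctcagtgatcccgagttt
Snrpe: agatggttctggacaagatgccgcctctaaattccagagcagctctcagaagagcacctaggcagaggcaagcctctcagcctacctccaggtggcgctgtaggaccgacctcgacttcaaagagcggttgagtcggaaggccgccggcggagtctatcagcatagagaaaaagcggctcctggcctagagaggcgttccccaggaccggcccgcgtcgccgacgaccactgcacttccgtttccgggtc
The Srsf1 and Srsf3 stretches shared the CRE core, with 1 match in Srsf1 and 2 in Srsf3. Hnrnph2 held 3 CCAAT boxes and 2 GC boxes, and Snrpe held none of the motifs searched. Of the 55 members, 48 had an entry, and the CRE core stood in 41.7% of these, beside 17.9% of 27025 RefSeq promoters of the same length. The GC box stood in 64.6% against 32.9%, the ETS core (CCGGAAG) in 29.2% against 7.05%, and the CCAAT box in 47.9% against 34.5%. The TATA box stood in 10.4% against 13.0%, the E-box (CACGTG) in 6.25% against 6.05%, and the full CRE (TGACGTCA, which contains the CRE core) in 4.17% against 1.62%. The NRF1 core (GCGCATGC) and the YY1 core (AAGATGG) stood in none of the 48, and in 2.32% and 4.53% of all promoters. The median GC content was 58.6% in the members and 52.0% over all promoters. Such matches are letters in a window and say nothing on binding.

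The mean pairwise correlation over strains was highest among SR genes, at 0.165, with 77.8% of the 36 pairs above 0, and within the component 1, component 2 and remaining arrays it was 0.234, 0.0832 and 0.152. hnRNP genes averaged 0.085 and Snrp genes 0.0817, while SF3 genes averaged −0.0313 and PRPF genes −0.0277. For hnRNPs the value came from the component 1 arrays (0.289), since it was 0.037 on the component 2 arrays and −0.000437 on the remaining 16. All members together averaged 0.041, with 57.5% of pairs above 0 and 2.15% above 0.5, and all pairs of named genes averaged 0.000912, with 49.8% above 0 and 1.34% above 0.5. Genes of the cytosolic ribosome, a complex known for its tightly joined expression, averaged 0.218 over 73 genes, and 40 proteasome genes averaged 0.0752. Points within a correlation share the reference RNA, and these values are descriptions without a test. Between families the mean was 0.034, with SR and hnRNP genes the closest at 0.0919 and SR and PRPF genes the farthest at −0.00652.

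**Figure D3:**
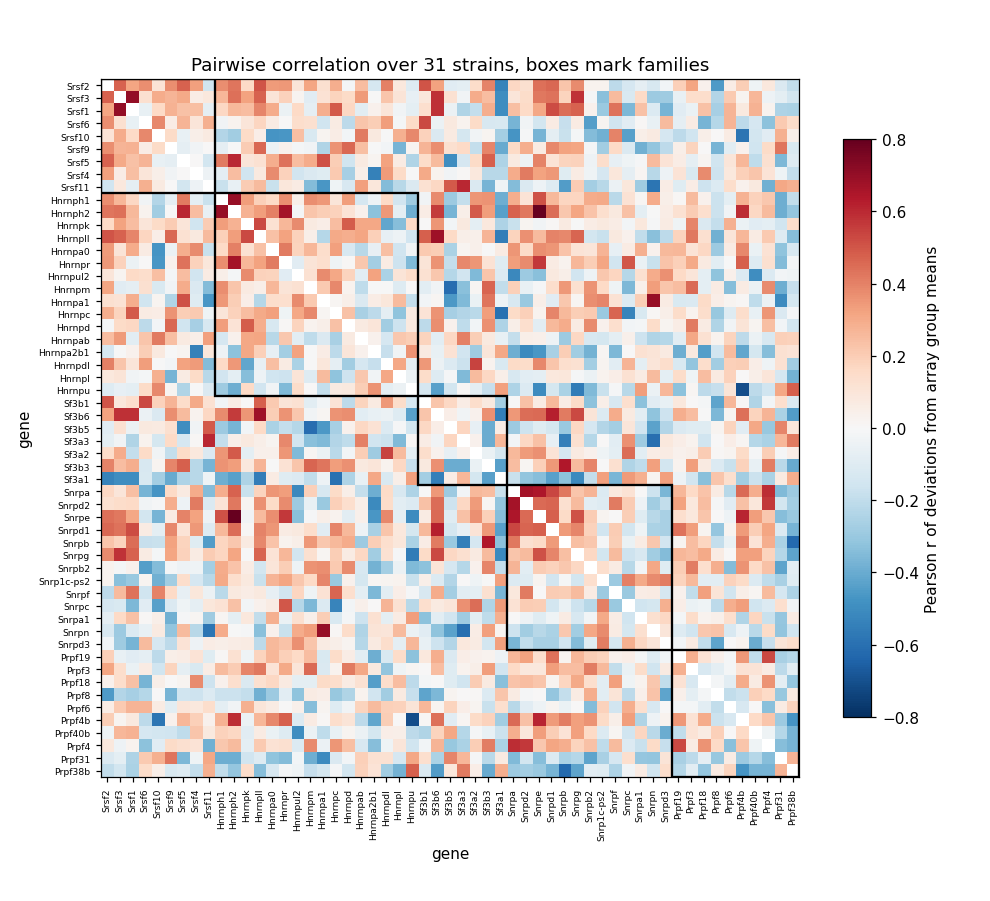
Pearson correlation over 31 strains of deviations from array group means (colour, blue below 0 and red above) between all 55 genes on both axes, with boxes around the families. The SR box is mostly red (mean 0.165), while the SF3 and PRPF boxes mix red and blue (means −0.0313 and −0.0277).

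The family means, as deviations from the array group, differed in their extreme strains. The SR mean was highest in BXD18 (0.32) and BXD28 (0.24) and lowest in BXD8 (−0.20) and BXD5 (−0.19), where it was −0.05 without Srsf10. The hnRNP mean had the same low strain, BXD8 at −0.25, and was highest in BXD28 at 0.20. The Snrp mean ran from −0.24 in BXD29 to 0.28 in BXD5. SF3 ran from −0.21 in BXD24 to 0.24 in BXD11, and PRPF from −0.21 in BXD13 to 0.11 in BXD5, but without Prpf6 the value in BXD13 was −0.02. The genes closest to the rest of their own family were Snrpa (0.568), Srsf2 (0.566), Srsf3 (0.520), Hnrnph1 (0.502) and Hnrnph2 (0.491). Those that ran most against it were Sf3a1 (−0.399), Prpf38b (−0.353), Prpf31 (−0.299), Prpf4 (−0.146) and Snrpd3 (−0.142).

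Hnrnph2 and Snrpe had a correlation of 0.803 (Spearman 0.83), with 0.643 on the component 1 arrays, 0.875 on the component 2 arrays and 0.922 on the remaining arrays. BXD5 held 0.40 for Hnrnph2 and 1.01 for Snrpe, and BXD31 held −0.71 and −0.52. Without the 2 strains farthest from the median the correlation was 0.755, so it did not rest on those alone. BXD5 and BXD32 scored highest on the third component of the other features, and the part of that component in single pairs was not tested. Hnrnph1 and Hnrnph2, which are paralogs, reached 0.702, with 0.871, 0.936 and 0.568 in the 3 array groups. Srsf1 and Srsf3, whose upstream stretches stand above, reached 0.703 (0.762, 0.748 and 0.679). Srsf1 and Srsf3 were both highest in BXD28, at 0.50 and 0.73, and without the 2 farthest strains the correlation was 0.526. Snrpa, of the U1 snRNP, and the Sm gene Snrpd2 had 0.664 (0.659, 0.657 and 0.674), with BXD5 and BXD32 the 2 highest strains for Snrpa. Hnrnpa1 and Snrpn had 0.693. Srsf1, Hnrnpa1 and Snrpn enter as averages of several probes, and their first 2 probes did not pass a test of agreement over strains.

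Other relatives varied from opposed to moderately joined. Hnrnpa1 and Hnrnpa2b1 had 0.0566, Snrpb and Snrpn 0.217, and Hnrnpd and Hnrnpdl −0.277. Srsf2 had 0.475 with Srsf3 and 0.319 with Srsf1. The pseudogene Snrp1c-ps2 and Snrpc had 0.413, with −0.0342 on the component 1 arrays, 0.737 on the component 2 arrays and 0.565 on the remaining arrays. The most opposed pair was Hnrnpu and Prpf4b at −0.714, with −0.826, −0.88 and −0.726 in the 3 array groups, so strains low in the scaffold protein tended to be high in the kinase within each group. Without the 2 farthest strains it was −0.497. Snrpb and Prpf38b had −0.625, and BXD36, at −1.29 and 1.23, was the extreme strain of both. Hnrnpm and Sf3b5 had −0.608. Among the high pairs, that of Snrpa with Snrpe (0.642) rested on few strains, since without the 2 farthest it was 0.231.

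**Figure D4:**
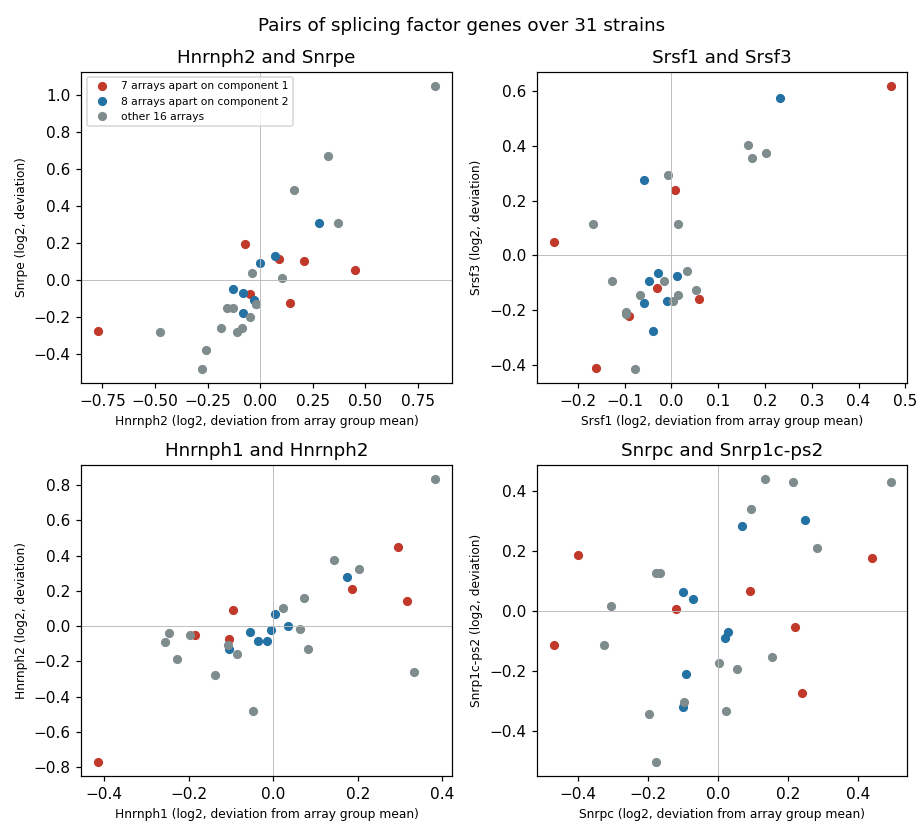
Deviation of a strain's log2 ratio from its array group mean for 4 pairs of genes (gene named first on the horizontal axis, second on the vertical); points are the 31 strains, coloured by array group. Hnrnph2 with Snrpe (0.803), Srsf1 with Srsf3 (0.703) and Hnrnph1 with Hnrnph2 (0.702) run along the diagonal, while Snrpc with Snrp1c-ps2 (0.413) spreads more.

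Different probes of a gene are the nearest thing to a replicate here, and 5 members had more than 1. The first 2 probes of Srsf2 followed each other over strains (r = 0.638, Spearman 0.521, permutation p = 0.00017, adjusted over the 5 genes 0.00085), and both read higher in the strains, with means of 0.27 and 0.37. Within the array groups r was 0.558 on the component 1 arrays, 0.102 on the component 2 arrays and 0.818 on the 16 remaining arrays. Adjusted over 15 such permutation tests, the p-values were 0.519, 0.889 and 0.00345. Two-sided permutations were made within array groups. Without the 2 arrays farthest from the median r was 0.443 (permutation p = 0.0247, adjusted 0.0618). Over the 1048 named genes with 2 or more probes the median r was 0.0216, and 2.39% exceeded 0.5.

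Probes of the other 4 genes did not pass this test. The first 2 probes of Srsf1 had r = 0.274 (permutation adjusted p = 0.333) and means of 0.11 and −0.57, so the lower mean of Srsf1 came from its second probe, which was negative on all 31 arrays. Without the 2 farthest arrays r was 0.427 for Srsf1, with the same adjusted p as Srsf2 in that setting (permutation, 0.0618). The last of its probes averaged 0.00, with r = −0.173 against the first and 0.303 against the second. The probes of Hnrnpa1 had r = 0.23 (adjusted p = 0.436) and means of −0.27 and 0.03. Those of Hnrnpab had r = −0.131 (adjusted p = 0.596) and means of −0.08 and 0.29. Both probes of Snrpn were higher in the strains, at 0.76 and 0.21, but they did not vary together (r = −0.0981, adjusted p = 0.625). The mean of Snrpn thus rested on the same direction in 2 probes, and its order of strains on neither. Over all genes with several probes, the median gap between the means of the first 2 was 0.336, wider than the means of most of the 55 genes.

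**Figure D5:**
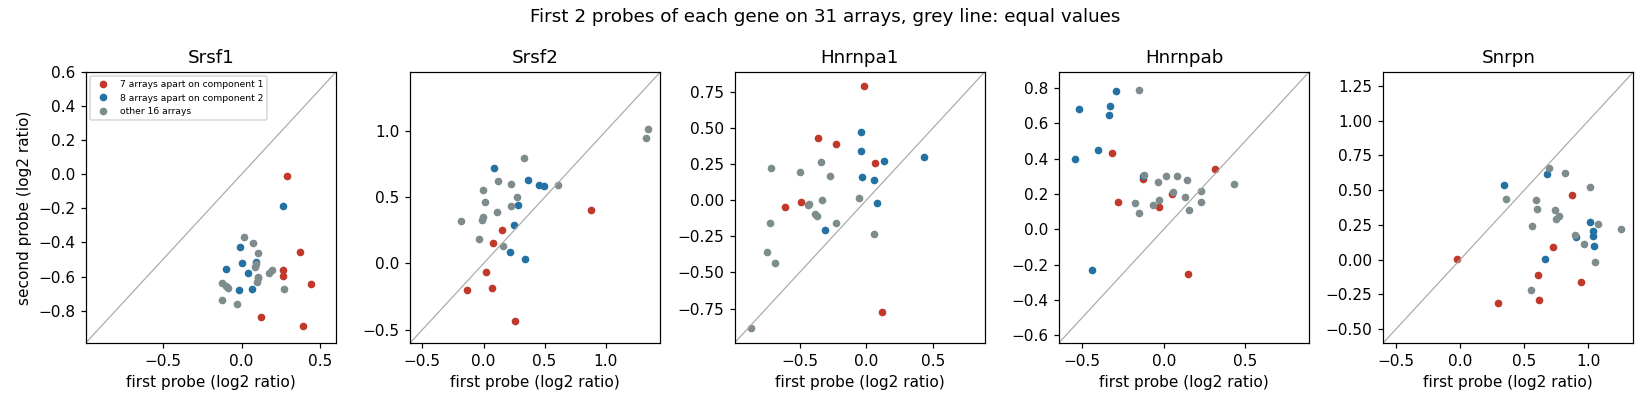
Log2 ratio of each strain over C57BL/6J for the first probe (horizontal axis) and the second probe (vertical axis) of the 5 genes with several probes; points are the 31 arrays, coloured by array group, and the grey line marks equal values. Srsf2 alone follows the line (r = 0.638, taken on deviations from array group means and not on the values drawn), and all Srsf1 points lie below it.

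Of 102 other splicing genes outside these families, 89 were measured, with 43 higher and 33 lower in the strains and a median mean of 0.05. That is 85.4% called, beside 76.1% of all features, and with the block 16 were higher and 24 lower, 44.9% beside 39.7%. The highest were Srpk1, a kinase of SR proteins, at 0.86 ± 0.11 (adjusted p = 3.94e-08), Cwc15 at 0.61 ± 0.09, Rbm25 at 0.60 ± 0.08 and Ptbp1, a repressor of neuronal exons, at 0.52 ± 0.13. Ptbp1 ran from −0.64 to 2.24, was positive on 21 of 31 arrays and lost its call with the block (adjusted p = 0.27), where its mean was 0.31. Srpk3, another kinase of SR proteins, has the same mean to 2 decimals, 0.52 ± 0.05, and stayed called with the block (adjusted p = 0.00293). The lowest were Eif4a3 of the exon junction complex at −1.02 ± 0.07, Slu7 at −0.97 ± 0.04, Aqr at −0.95 ± 0.07 and Snrnp70 of the U1 snRNP at −0.74 ± 0.05. Rbm25, Eif4a3, Slu7 and Snrnp70 each have a probe at the low-reading place, and Aqr has none there. With the typical value of the place subtracted, Eif4a3 averaged −0.60 (adjusted p = 3.77e-08) and Slu7 −0.56 (8.59e-14), in the limma fit that called 73.6% of all features. The order of the lowest genes thus depends on that place. The mean correlation within this list was 0.0142.

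Markers of brain cell types were read beside the families. Over all features 42.1% were called higher and 33.9% lower. Of measured markers, 6 of 8 of oligodendrocytes were higher and none lower, 3 of 10 of neurons were higher and 3 lower, 2 of 8 of astrocytes were higher and 3 lower, and 2 of 7 of microglia were higher and 3 lower. Of the markers of neighbouring tissue, 3 of 7 for pituitary were higher and 1 lower, 3 of 5 for choroid plexus higher and 2 lower, and 0 of 4 for blood higher and 3 lower. With the block, 4 oligodendrocyte markers were higher and 0 lower. In the same order it was 0 and 1 for neurons, 2 and 2 for astrocytes and 1 and 3 for microglia. Pituitary markers had 1 and 1, choroid plexus 2 and 1, and blood 0 and 1. In that fit 19.6% of all features were higher and 20.1% lower. Over strains, the mean of the oligodendrocyte markers had a correlation of 0.559 with the hnRNP mean and 0.577 with the Snrp mean, beside −0.131 with SR, 0.0398 with SF3 and −0.0229 with PRPF. Neuron markers had 0.341 with hnRNP, 0.335 with SF3 and 0.417 with Snrp, and astrocyte markers −0.321 with SR and −0.387 with SF3. Choroid plexus markers had 0.288 to 0.327 with the SR, hnRNP, SF3 and Snrp means, and the microglia, pituitary and blood lists between −0.185 and 0.302 with any family. The mean correlation between genes of a list was 0.199 for oligodendrocytes, 0.187 for pituitary, 0.0925 for astrocytes and 0.061 for microglia. For neurons it was 0.00301, for choroid plexus −0.0799 and for blood −0.0959, so genes of these lists did not vary together. The marker correlations were not taken within the array groups. The mean of the ribosomal protein genes had 0.528 with SR, 0.484 with hnRNP, 0.549 with SF3, 0.532 with Snrp and 0.157 with PRPF genes. For SR genes it was 0.877 on the component 1 arrays, −0.186 on the component 2 arrays and 0.522 on the remaining arrays. In the same order, hnRNP genes had 0.814, 0.569 and 0.302, SF3 genes 0.336, 0.334 and 0.629, and Snrp genes 0.477, 0.874 and 0.519. PRPF genes changed sign, with −0.466, −0.155 and 0.408. The part of these markers in the covariation of the families was not tested.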

How the data were processed

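Whole-brain RNA of 31 BXD strains was set against C57BL/6J RNA on 2-colour glass arrays. The authors deposited 1 log ratio for each of 23040 spots and each array, read here as log2. The submitters' processing notes list R 2.0.0 and limma without saying what each did. How background and dyes were treated within an array is not given in the sources. After sorting, every column was the same, so the deposited log2 ratios had been quantile normalised. The number of arrays limits precision.

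Symbols came from the platform annotation, and all 55 genes matched RefSeq by Entrez ID. Probes of a gene were averaged (21262 features), and limma 3.58.1 in R 4.3.3 tested each mean against 0 (lmFit, eBayes, two-sided, Benjamini-Hochberg over all features). Correlations used deviations from array group means, and probe agreement used 100000 permutations within array groups. In array groups of under 10 samples these were exact. Alternatives were a random block, a 1.2-fold threshold, other centring, leaving out array groups or probes, and other correlations. Only the test of each mean against 0 was tried on simulated data, in which arrays were independent and formed no array groups.

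The rule for named genes took members with several probes, the 3 highest and 3 lowest called means of each family, the 6 widest SDs, the 5 highest and 5 lowest correlations with their family, and members of constant sign, with 4 highest and 4 lowest called means of the other splicing genes. The 16 members outside this rule were given by value too, so that all 55 are accounted for. Srpk3, Sf3b1's neighbours and some pairs of paralogs were added after values were seen. The count over the Sm ring was not set out beforehand either. Members and lists were chosen with earlier results of these data known. Figures were drawn with matplotlib 3.10.9.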

Additional observations from a re-analysis of the deposited data

How the results depend on the processing

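The count of genes called higher, 25, moved to 3 with a 1.2-fold threshold and 6 with the random block, and the count called lower, 17, to 7 and 10. Other settings, among them median centring, subtraction of the place median, single probes and left-out array groups, gave 17 to 27 higher and 15 to 18 lower. The mean correlation of SF3 genes was 0.0525 on the arrays apart on neither component, and that of PRPF genes 0.0293 with no array group removed. Agreement of probes passed for 0 genes, against 1, without the 2 arrays farthest from the median. Of the means that changed sign, Prpf4, called at 0.13, had −0.0019 on the remaining arrays, and the others were within 0.1 of 0. Srsf3 went to −0.004 with median centring, −0.073 with the place median subtracted, −0.021 without the component 1 arrays, −0.039 without the component 2 arrays and −0.1 on the remaining arrays. Hnrnph1 had 0.017 with the block and 0.029 with array groups weighted equally. Snrpd3 had −0.0025 with centring and −0.033 without the component 2 arrays. Snrpe had −0.00084 with the place subtracted, −0.014 without the component 1 arrays and −0.041 on the remaining arrays. Hnrnpll had −0.0049 with the place subtracted, −0.03 with the block and −0.044 with equal weighting. Hnrnpk had −0.055 and Snrpd1 −0.049 with the place subtracted, and Snrpd1 −0.0052 with centring. Sf3a3 had 0.0068 with the block and 0.011 with equal weighting. Prpf31 had 0.0013 without the component 2 arrays, and the Snrpn probes a correlation of 0.107 with no array group removed. The cause was not tested. Equal weighting, the remaining arrays for the means, leaving out Snrp1c-ps2, BXD13 or BXD5 and BXD32, and the first probe alone were chosen after seeing the data. No paired analysis was possible because all 31 strains form 1 group with 1 array each.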
